A study of Caenorhabditis elegans with 6 samples.

Results

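The genes described here are 10 genes of Caenorhabditis elegans that release stored fat or mark the fasted state. They are 6 lysosomal lipase genes (lipl-1, lipl-2, lipl-3, lipl-4, lipl-5 and lipl-7), the fat-droplet lipase gene atgl-1, the fasting-induced lipase genes fil-1 and fil-2, and the flavin monooxygenase gene fmo-2. They were taken by gene symbol from a microarray table in which 25478 genes have a transcript cluster of their own, a cluster being the set of probes that stands for 1 transcribed locus. All 10 were found, each with 1 cluster, and none was removed by a filter on low values.

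The study exposed the wild-type strain N2 to C-SPIONs, superparamagnetic iron oxide nanoparticles that carry a citrate coat. The C-SPION group (3 arrays) spent 24 h in M9 buffer at 50% with 500 µg/mL of particles, and the control group (3 arrays) spent the same 24 h in that buffer alone. Both groups had first grown on bacterial plates for 48 h to the L4 larval stage and were kept at 20 °C, and RNA came from whole hermaphrodites. The labels name no food in the buffer and no fed group was analysed here, so the arrays compare particles with no particles in animals held in buffer, and the effect of fasting itself was not measured.

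Worms store fat as triglyceride in droplets, mostly in the intestine and the epidermis. In fasting this fat is released along 2 routes. ATGL-1, the homologue of mammalian adipose triglyceride lipase, acts at the droplet surface and is controlled by protein kinase A and AMP-activated kinase, while LIPL enzymes digest fat inside lysosomes. Transcription of several lipl genes is switched on in fasting by HLH-30, the homologue of TFEB, and held down in fed animals by MXL-3. The genes fil-1 and fil-2 were named for their induction in fasting, which depends on the endoplasmic reticulum stress sensor IRE-1, and fmo-2 is induced by fasting and by low oxygen.

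All values are log2 signals made by the authors with RMA, which subtracts background, puts arrays on 1 scale and combines the probes of a cluster. A difference of 1 is 2-fold, and differences are C-SPION minus control. Signals of different genes come from different probes, so levels are compared only within a gene. In RNA of whole animals, fewer cells of a type and less RNA per cell cannot be told apart. Over 26192 clusters the arrays correlated at 0.935 to 0.969. C-SPION 1 correlated more closely with control 1, at 0.959, than with C-SPION 2 or C-SPION 3, at 0.935 and 0.949, and differences without single arrays are given beside many of the results. The labels give no separate cultures for the arrays within a group. The p-values therefore measure the spread between these arrays and no more, and that spread may be technical.

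None of the 10 genes passed the test of a difference between the groups. With limma across all clusters, 0 of 10 had an adjusted p under 0.05, the lowest being 0.369 for lipl-4, and 0.00% of all clusters passed. At an unadjusted p under 0.05, 1 of the 10 was higher and 0 were lower, against 5.22% higher and 7.30% lower of all clusters. The signal was higher with C-SPIONs for 8 genes and lower for lipl-1 and fil-1. The median difference was 0.23 over the 10 genes and 0.04 over all clusters, of which 53.3% were higher. For 9 of the 10 genes the 95% interval of the difference included 0, and for 8 the difference was smaller than the range of the 3 control arrays.

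**Figure D1:**
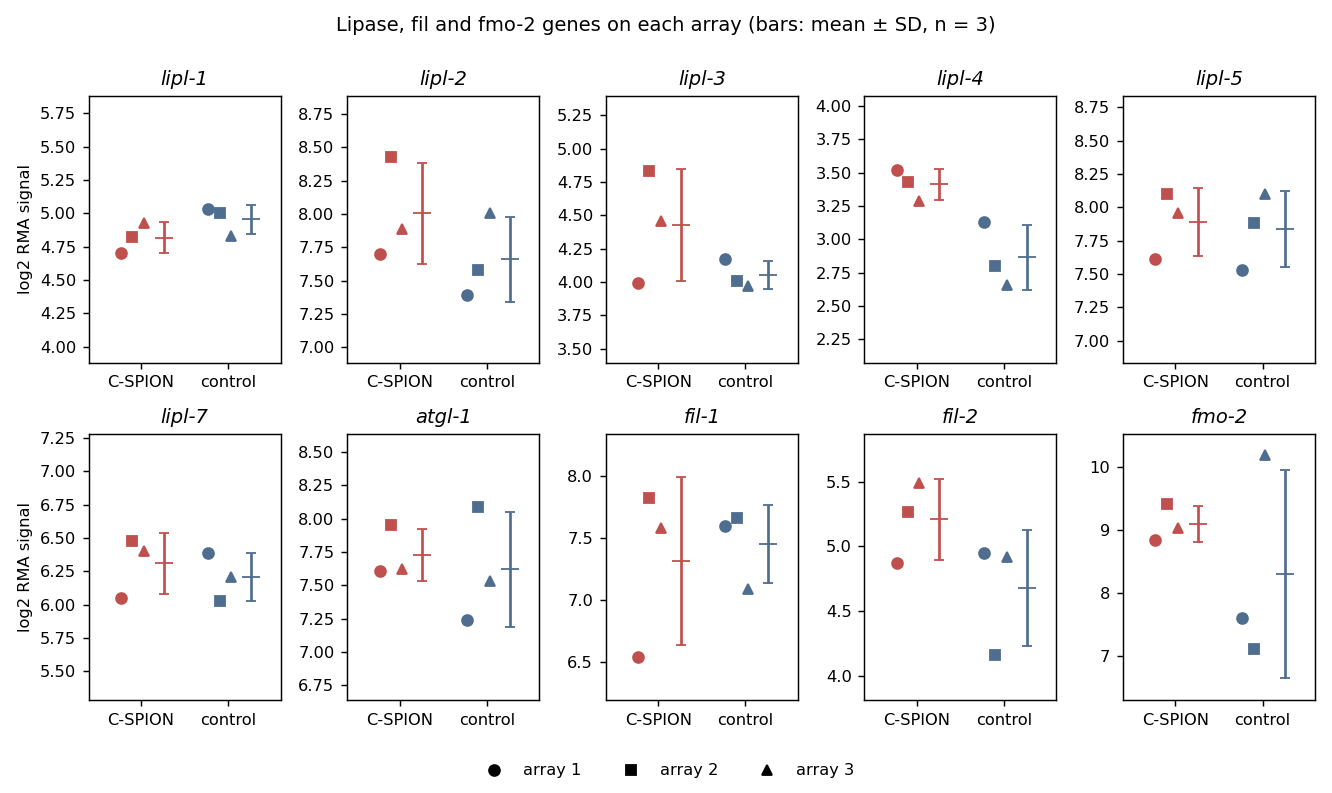
Log2 RMA signal (vertical axis) of each of the 10 genes on the 3 C-SPION arrays (left, red) and the 3 control arrays (right, blue). The mean ± SD stands beside the points. Marker shapes give the array number within its group, and the labels do not say whether these numbers pair arrays across groups. The groups lie apart for lipl-4 alone, and control 3 lies far above the other controls for fmo-2, at 10.19 against 7.60 and 7.10.

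The lysosomal lipase genes came closest to a difference in lipl-4. LIPL-4 is an intestinal lysosomal lipase whose gene is known to be raised in animals without a germ line, and whose excess lengthens life through the lipid chaperone LBP-8. Its signal (cluster 18572359) was 3.52, 3.43 and 3.29 on C-SPION 1 to 3, against 3.13, 2.80 and 2.66 on control 1 to 3. Every C-SPION array lay above every control array. Groups lay apart in this direction for 9.40% of all clusters, and in the opposite direction for 9.24%, so 1 of 10 is near that background. The means were 3.41 ± 0.12 with C-SPIONs and 2.86 ± 0.24 in controls (SD, n = 3 each). The difference was 0.55, or 1.46-fold (95% interval 0.06 to 1.04, limma adjusted p = 0.369). The signal of lipl-4 was below the first quartile of all clusters on all 6 arrays, the quartiles running from 3.45 to 3.58, a range where RMA compresses differences. Leaving out 1 array at a time, the difference stayed between 0.45 and 0.68, with adjusted p from 0.370 to 0.662.

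The fasting-responsive lipl-3, which is repressed by MXL-3 in fed worms, was at 3.99, 4.83 and 4.46 on C-SPION 1 to 3 and at 4.17, 4.01 and 3.97 on control 1 to 3. C-SPION 2 and C-SPION 3 lay above all controls and C-SPION 1 lay among them. The difference was 0.38 (95% interval -0.23 to 0.98, limma adjusted p = 0.572), and the SD was 0.42 in C-SPION arrays and 0.11 in controls. Without C-SPION 1 it was 0.595 (limma adjusted p = 0.292), and without C-SPION 2 it was 0.175. For lipl-1, which is under the same control by HLH-30 and MXL-3, the signal was 4.70, 4.82 and 4.93 with C-SPIONs against 5.03, 5.00 and 4.83 in controls. The groups overlapped, and the difference was -0.14 (95% interval -0.58 to 0.30, limma adjusted p = 0.791), or -0.08 without C-SPION 1. These 2 genes thus stood on opposite sides of 0, neither past the threshold, and whether they differ from each other was not tested.

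The remaining lysosomal lipase genes among the 10 genes overlapped between the groups. The signal of lipl-2 was 7.70, 8.43 and 7.89 on C-SPION 1 to 3 and 7.39, 7.58 and 8.01 on control 1 to 3, so control 3 lay above C-SPION 1 and C-SPION 3. Its difference was 0.35 (95% interval -0.30 to 1.00, limma adjusted p = 0.633). It was 0.135 without C-SPION 2 and 0.21 without control 1, but 0.52 without control 3. The fasting-induced lipl-5 was at 7.61, 8.10 and 7.96 with C-SPIONs, against 7.53, 7.88 and 8.10 in controls, and its highest value was shared by C-SPION 2 and control 3. The difference of lipl-5 was 0.05 (95% interval -0.51 to 0.62, limma adjusted p = 0.946), and with 1 array left out it ran from -0.10 without control 1 to 0.19 without C-SPION 1, being -0.05 without C-SPION 2. For lipl-7 the signal was 6.05, 6.48 and 6.40 with C-SPIONs and 6.39, 6.03 and 6.21 in controls. Each group of lipl-7 held values at both ends, and the difference was 0.10 (95% interval -0.41 to 0.61, limma adjusted p = 0.876), running from 0.01 without control 2 to 0.23 without C-SPION 1. For lipl-5 and lipl-7 the intervals reach no further than 1.54-fold and 1.52-fold higher, or 1.43-fold and 1.33-fold lower.

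The fat-droplet lipase gene atgl-1 was close to equal in the group means. Its signal (cluster 18520789) was 7.61, 7.95 and 7.62 on C-SPION 1 to 3, against 7.24, 8.09 and 7.53 on control 1 to 3. The controls held both the lowest and the highest value, and the C-SPION arrays lay between them. The means were 7.73 ± 0.19 with C-SPIONs and 7.62 ± 0.43 in controls (SD, n = 3 each). The difference was 0.11 (95% interval -0.53 to 0.74, limma adjusted p = 0.896). The interval reaches 1.67-fold higher and 1.44-fold lower, so larger differences in mean signal lie outside it. The sign rested on single arrays, the difference being -0.08 without control 1 and -0.0050 without C-SPION 2, but 0.34 without control 2.

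The fasting-induced lipase genes stood on opposite sides of 0. The signal of fil-1 was 6.54, 7.82 and 7.58 on C-SPION 1 to 3 and 7.60, 7.66 and 7.09 on control 1 to 3. C-SPION 1 lay below every other array and C-SPION 2 above every other. The difference of fil-1 was -0.14 (95% interval -1.0 to 0.73, limma adjusted p = 0.904), and it was 0.25 without C-SPION 1 but -0.39 without C-SPION 2. For fil-2 the signal was 4.87, 5.27 and 5.49 with C-SPIONs against 4.95, 4.16 and 4.92 in controls. C-SPION 2 and C-SPION 3 lay above all controls, C-SPION 1 lay just under control 1 and control 3, and control 2 was lowest. The difference of fil-2 was 0.53 (95% interval -0.16 to 1.23, limma adjusted p = 0.490). With control 2 left out it was 0.275.

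The widest spread of the 10 genes was that of fmo-2, a flavin-containing monooxygenase whose excess is known to lengthen worm life. Its signal (cluster 18540357) was 8.85, 9.41 and 9.03 on C-SPION 1 to 3, against 7.60, 7.10 and 10.19 on control 1 to 3. Control 1 and control 2 lay below all C-SPION arrays and control 3 above them all, a range of 3.09 within the controls and 0.56 within the C-SPION arrays. The means were 9.10 ± 0.29 with C-SPIONs and 8.30 ± 1.66 in controls (SD, n = 3 each). The difference was 0.80 (95% interval -0.97 to 2.57, limma adjusted p = 0.689). Without control 3 the difference was 1.75 (limma adjusted p = 0.160), without control 1 it was 0.45, and without control 2 it was 0.20. The direction was the same whichever array was left out, while the size depended on the controls used.

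**Figure D2:**
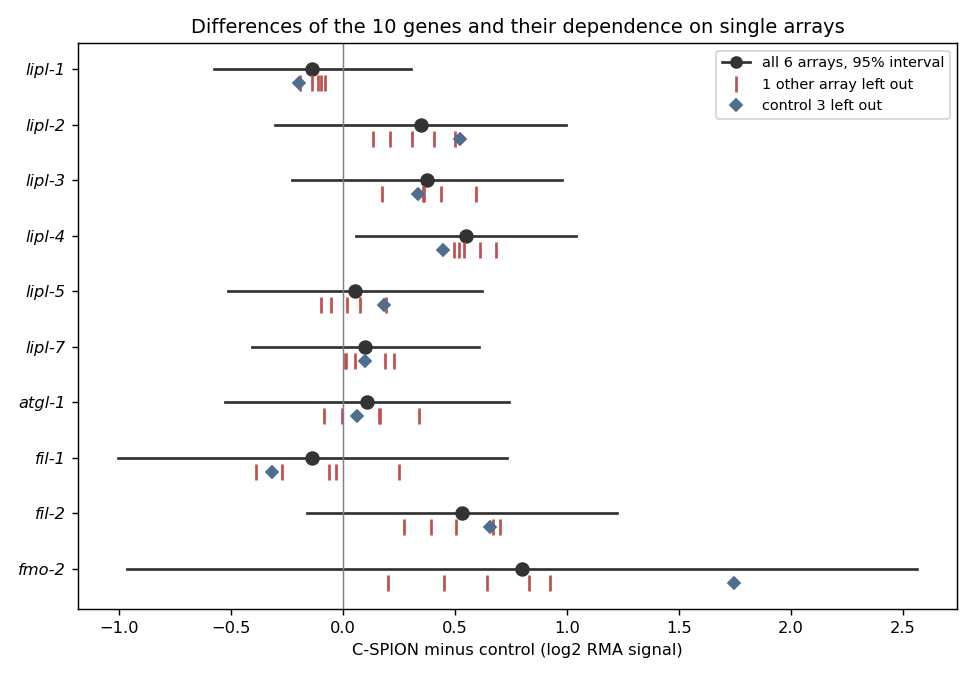
Difference in mean log2 RMA signal, C-SPION minus control (horizontal axis), for each of the 10 genes: black points and lines give all 6 arrays with the 95% interval of the limma fit, and marks below each line give the difference with 1 array left out (red ticks), blue diamonds being the value without control 3. All intervals but that of lipl-4 include 0, and fmo-2 moves to 1.75 without control 3.

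The arrays differed in which genes they held high, and no group was uniform. C-SPION 2 held the highest value of 5 of the 10 genes, 1 of them shared with control 3, and the lowest of none. C-SPION 1 held the highest value of lipl-4 alone and the lowest of lipl-1 and fil-1. Relative to each gene's own mean, the median over the 10 genes was -0.16, 0.31 and 0.15 for C-SPION 1 to 3, against -0.04, -0.23 and -0.05 for control 1 to 3. C-SPION 1 thus lay within the control range on this median. Without C-SPION 2 the median difference over the genes was 0.08 in place of 0.23, and without C-SPION 1 it was 0.37.

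**Figure D3:**
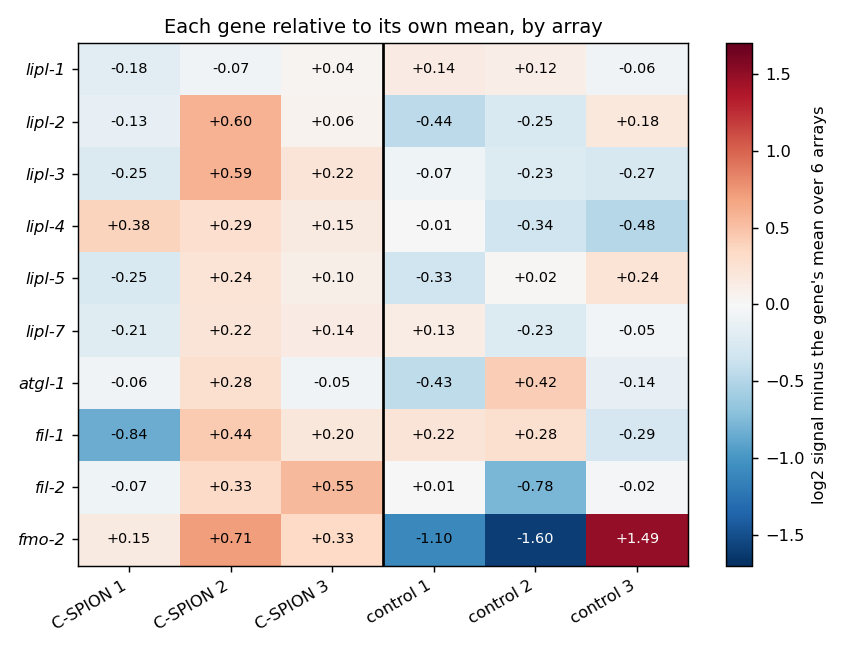
Log2 RMA signal of each gene (rows) minus that gene's mean over the 6 arrays, by array (columns, C-SPION left of the line and control right of it); red is above the gene's mean and blue below. C-SPION 2 holds the most high values, and control 3 stands 1.49 above the mean of fmo-2 while control 2 stands 1.60 below it.

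By likeness over the 6 arrays, measured as the root mean square difference between mean-centred log2 profiles, the genes nearest to fmo-2 among 25477 others were ssp-10 at 0.26, Y46G5A.7 at 0.30 and R11A5.3 at 0.30, where the median over all genes was 1.1. Each of these had control 3 highest and control 1 and control 2 below the C-SPION arrays. They were picked for nearness to fmo-2, so the shared pattern adds no evidence of its own. R11A5.3 was at 9.35, 10.44 and 10.09 with C-SPIONs and at 7.90, 8.0 and 10.64 in controls. The likeness is a description of 6 arrays that share 1 normalisation.

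Genes that act with the lipases were described in 7 lists, which hold 84 genes, 78 of them with a cluster here. None of the 78 had an adjusted p under 0.05 by limma. The regulator list held the gene with the smallest adjusted p of all 78, mxl-3, the repressor of lipl-1 and lipl-3. The signal of mxl-3 was 8.79, 8.82 and 8.49 on C-SPION 1 to 3, against 9.73, 10.48 and 9.84 on control 1 to 3. The groups lay apart, with means of 8.70 ± 0.18 with C-SPIONs and 10.02 ± 0.41 in controls (SD, n = 3 each). The difference was -1.32 or 2.49-fold (95% interval -1.93 to -0.71, limma adjusted p = 0.261), and it ran from -1.46 to -1.09 when 1 array was left out. Beside it stand the differences of lipl-1 at -0.14 and lipl-3 at 0.38, of which neither passed.

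Among the 24 measured regulators 10 were higher and 14 lower with C-SPIONs, with a median of -0.05. At an unadjusted p under 0.05, hsp-4 was higher and mxl-3 and crtc-1 were lower, of the 24. Of all clusters 5.22% were higher and 7.30% lower at that threshold, so these counts are near that background. The chaperone gene hsp-4, which is linked with IRE-1 to the fasting response of fil-1 and fil-2, was at 7.24 ± 0.18 with C-SPIONs and 6.74 ± 0.21 in controls (SD, n = 3 each, limma adjusted p = 0.394). The coactivator gene crtc-1, a target of AMP-activated kinase, was at -0.51 (limma adjusted p = 0.358). A few regulators were named for their known ties to the 10 genes, after their values were seen. The lysosomal activator hlh-30 was at -0.34 (95% interval -0.84 to 0.16, and -0.22 without C-SPION 3), the insulin-pathway factor daf-16 at -0.28 (95% interval -0.73 to 0.18), and the stress sensor ire-1 at 0.28 (95% interval -0.29 to 0.84, and from 0.14 without control 3 to 0.45 without control 2). The fasting receptor gene nhr-49 was at -0.04 (95% interval -0.53 to 0.45), and turned positive in 3 alternatives, at 0.04 with arrays centred on their medians, 0.03 without control 2 and 0.085 without C-SPION 1.

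Genes of fat droplets and of the control of lipolysis numbered 13, of which 7 were higher and 6 lower, with a median of 0.02. The kinase gene kin-1, the catalytic subunit of protein kinase A that acts on ATGL-1 in fasting, was at 6.64, 6.62 and 6.72 on C-SPION 1 to 3 and at 7.17, 7.85 and 7.48 on control 1 to 3. The groups lay apart, and the difference was -0.84 (95% interval -1.38 to -0.30, limma adjusted p = 0.300). It was the sole gene of the 13 with an unadjusted p under 0.05, a threshold at which 7.30% of all clusters were lower. Its regulatory partner kin-2 was at -0.59 (95% interval -1.20 to 0.02, limma adjusted p = 0.411). The droplet coat gene plin-1, perilipin, was at 10.11, 10.21 and 10.27 with C-SPIONs against 9.83, 9.90 and 9.69 in controls. Those groups also lay apart, and the difference was 0.39 (95% interval -0.04 to 0.82, limma adjusted p = 0.432).

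Of the other lipase genes, lipl-6 was at 0.28 (95% interval -0.20 to 0.76) and lipl-8 at -0.22 (95% interval -0.83 to 0.39). The groups lay apart upward for lipl-6, as for lipl-4, and overlapped for lipl-8. Without control 2 the difference of lipl-6 was 0.15, and that of lipl-8 ran from -0.45 without C-SPION 3 to -0.10 without C-SPION 2. The signal of lipl-8 ran from 2.67 to 3.38, below the first quartile of all clusters on every array. The lips genes form a further lipase-like family, and 9 of 16 were higher and 7 lower, with a median of 0.01. At an unadjusted p under 0.05, 0 were higher and lips-10 and lips-3 were lower, against 5.22% higher and 7.30% lower of all clusters. The signal of lips-10 was 5.67, 5.52 and 5.3 with C-SPIONs and 6.72, 7.20 and 6.37 in controls. The groups lay apart, and the difference was -1.27 (95% interval -1.89 to -0.65, limma adjusted p = 0.262). Of the 16 lips genes, this 1 lay apart downward and 2 upward, lips-5 and lips-8, against 9.24% and 9.40% of all clusters. For lips-3 the signal was 6.70, 4.44 and 3.89 on C-SPION 1 to 3, against 6.62, 6.56 and 6.61 on control 1 to 3. C-SPION 1 lay with the controls and the other C-SPION arrays far below, so that the difference was -1.59 (limma adjusted p = 0.396) with all arrays and -2.43 (limma adjusted p = 0.0350) without C-SPION 1. Without C-SPION 3 it was -1.03 (limma adjusted p = 0.708). A similar division was seen in lips-6, at 7.38, 4.31 and 3.18 with C-SPIONs and 7.07, 7.96 and 6.09 in controls. The difference of lips-6 was -2.08 with all arrays (95% interval -4.53 to 0.37, limma adjusted p = 0.4525). With 1 array left out it ran from -3.295 without C-SPION 1 to -1.195 without C-SPION 3.

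Of the 10 further fasting response genes 7 were higher and 3 lower, with a median of 0.13. At an unadjusted p under 0.05, cpt-2 was higher and acs-2 lower, against 5.22% higher and 7.30% lower of all clusters. The largest difference was that of acs-2, an acyl-CoA synthetase gene of mitochondrial fat oxidation that NHR-49 induces in fasting. The signal of acs-2 was 4.60, 4.94 and 5.07 on C-SPION 1 to 3, against 7.91, 8.32 and 5.71 on control 1 to 3. All C-SPION arrays lay below all controls, and control 3 lay nearer to the C-SPION arrays than to the other controls. The difference was -2.44 or 5.44-fold (95% interval -3.95 to -0.93, limma adjusted p = 0.295), and -3.25 (limma adjusted p = 0.105) without control 3. On both acs-2 and fmo-2, control 3 therefore stood away from the other controls, low on the first and high on the second.

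The carnitine palmitoyltransferase gene cpt-2 was at 0.62 (95% interval 0.13 to 1.12, limma adjusted p = 0.337) and the acyl-CoA dehydrogenase gene acdh-1 at -0.36 (limma adjusted p = 0.658), the last running from -0.63 without control 2 to -0.17 without C-SPION 3. A gene named after its values were seen, hacd-1, a hydroxyacyl-CoA dehydrogenase of fat oxidation, was at 8.85, 9.53 and 9.27 with C-SPIONs and 9.13, 9.41 and 7.10 in controls. Control 3 was the lowest array, and the difference of 0.67 became -0.05 without it, and 1.1 without control 2. Having been picked with its values known, hacd-1 cannot count as a repeat of the control 3 values of acs-2 and fmo-2.

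The lipid chaperone and monooxygenase families held no gene with an adjusted p under 0.05 by limma. Of 9 lbp genes 3 were higher and 6 lower, with a median of -0.12, and 0 had an unadjusted p under 0.05. Leading them were lbp-7 at -0.52, lbp-5 at -0.37 and lbp-4 at 0.28, with adjusted p from 0.468 to 0.571. The partner of LIPL-4, lbp-8, was at -0.32 (95% interval -1.01 to 0.37), at -0.08 without control 3 and at -0.59 without control 1. Its signal ran from 2.32 to 3.35, below the first quartile of all clusters on every array. Of the other 4 fmo genes fmo-3 was at -0.68 (95% interval -1.29 to -0.07, limma adjusted p = 0.370), fmo-1 at 0.17 (0.09 without control 2) and fmo-4 at -0.18, the last being 0.07 without control 3 and -0.41 without control 2. Among the 4, fmo-3 alone had an unadjusted p under 0.05, and its groups lay apart. Of all clusters 7.30% were lower at that threshold and 9.24% lay apart downward.

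**Figure D4:**
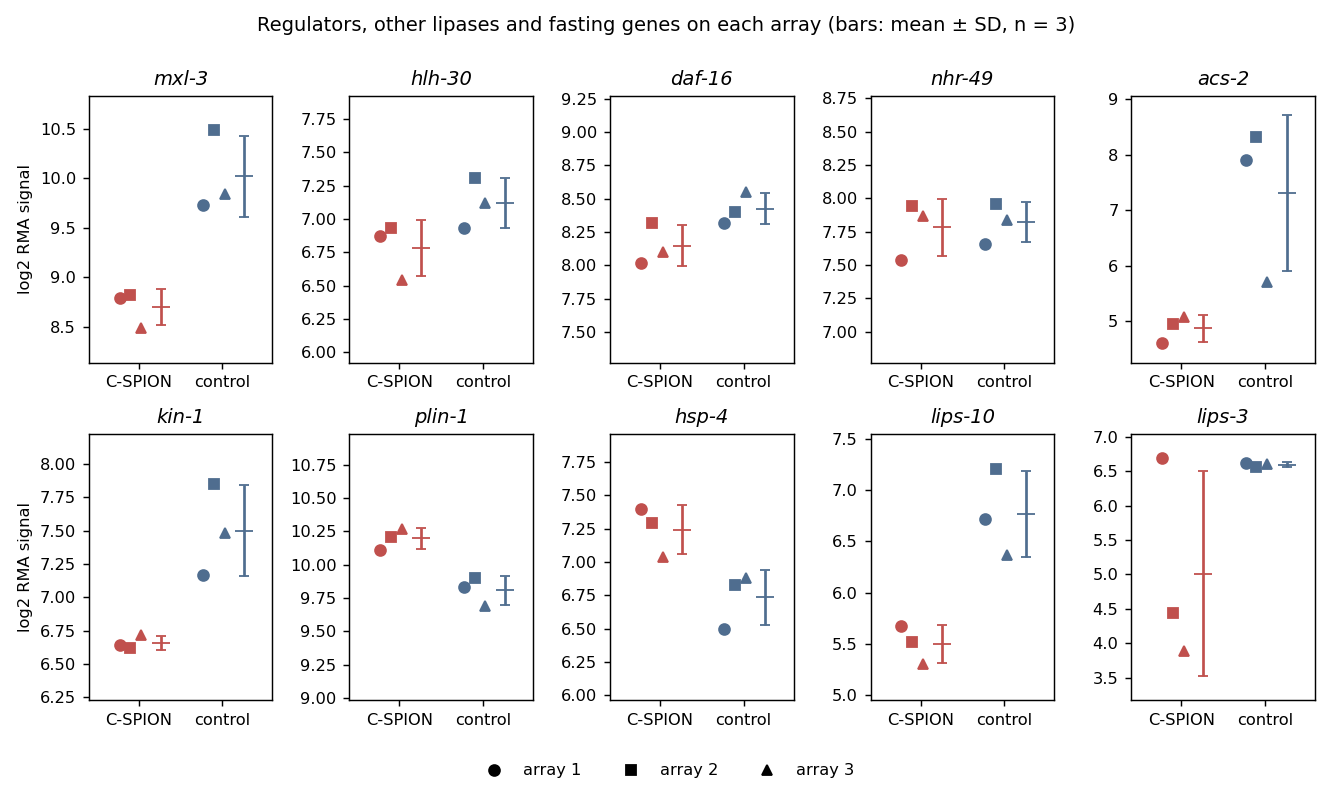
Log2 RMA signal (vertical axis) of 10 genes tied to the lipases on the 3 C-SPION arrays (left, red) and the 3 control arrays (right, blue), with the mean ± SD beside the points; marker shapes give the array number within its group. The groups lie apart for mxl-3, acs-2, kin-1, plin-1, hsp-4 and lips-10, each named for its small unadjusted p, where 9.40% of all clusters lay apart upward and 9.24% downward, and C-SPION 1 lies with the controls for lips-3.

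No marker of 6 tissue lists passed the limma test, the lowest adjusted p being 0.262 in the neuron list, and the list means below are a description. At an unadjusted p under 0.05, 6 of 7 germ line markers were higher and 5 of 7 neuron markers lower. Also lower were 3 of 6 muscle, 3 of 8 intestine and 1 of 2 coelomocyte markers, and 1 of 7 hypodermis markers was higher. Of all clusters 5.22% were higher and 7.30% lower at that threshold. Groups lay apart for 7 germ line markers upward and 6 neuron markers downward, against 9.40% and 9.24% of all clusters. The germ line and neuron counts lie well above these shares. Markers of the intestine, a main tissue of these lipases, had a mean log2 signal of 6.92 to 7.21 on C-SPION arrays and 7.17 to 7.71 on controls, so the groups overlapped, with 5 of 8 lower and control 3 the lowest control. Within that list act-5 was at -1.01, nhx-2 at -0.99, ifb-2 at -0.82, pept-1 at -0.70 and vha-6 at -0.11. The other markers, elt-2, ges-1 and elt-7, were at 0.32, 0.15 and 0.08. Germ line markers had a mean of 7.79 to 8.18 on C-SPION arrays and 6.68 to 7.43 on controls, with 7 of 7 higher and control 3 lowest. Hypodermis markers overlapped, at 6.42 to 6.84 on C-SPION arrays and 6.59 to 6.78 on controls, with 5 of 7 higher. Neuron markers had a mean of 6.49 to 7.07 on C-SPION arrays and 7.45 to 8.06 on controls, with 7 of 7 lower. Muscle markers had a mean of 7.20 to 7.62 on C-SPION arrays and 7.89 to 8.47 on controls, with 6 of 6 lower. The 2 coelomocyte markers had a mean of 4.42 to 4.49 on C-SPION arrays and 4.90 to 5.50 on controls. The part of these marker levels in the values of lipl-4, fmo-2, mxl-3 and kin-1 was not tested.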

How the data were processed

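The table holds the authors' log2 signals, deposited with 2 decimals for each transcript cluster and array. Per the submitters' processing notes they come from RMA in Affymetrix Expression Console. The sources used here give no versions, settings or genome build, so no coordinates are printed. Signal over background was not known, and precision is limited by the 6 arrays. Of 29317 clusters, 25546 had 1 gene symbol in the platform annotation, 646 had several and 3125 had none. Gene identifiers matched 25495 clusters to RefSeq assembly WBcel235, from which symbols were updated.

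The 26192 clusters with a symbol were fitted with limma 3.58.1 (R 4.3.3), using lmFit and eBayes with a group term alone. Tests were two-sided, with 3.11 prior degrees of freedom, p-values adjusted by Benjamini-Hochberg over all these clusters and a threshold of 0.05. The fit was tested on simulated data. A gene was represented by its cluster with the highest mean. From each of the 7 pathway lists up to 3 genes with the smallest unadjusted p were named, and 6 more outside that rule after their values were seen. The 10 genes and the lists were chosen with earlier results of these data known. Sample titles gave the groups, although the third control carries the second's number in its source name. Alternatives were a replicate block, leaving out arrays, quantile normalisation, median centring, a filter on dim clusters, inclusion of unnamed clusters, an eBayes trend with robust variance and the mean over a gene's clusters.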

Additional observations from a re-analysis of the deposited data

How the results depend on the processing

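In no alternative did an adjusted p of the 10 genes pass 0.05, the lowest being 0.160. The mean over a gene's clusters had no test of its own and repeats the main result, as each of the 10 genes has 1 cluster. The block, the eBayes options, unnamed clusters, the dim filter and the mean over clusters leave a difference as it is. Under the 8 settings that can move it, 74 of 80 values of the 10 genes kept their direction. Those that turned were lipl-5 (-0.10 and -0.05 without control 1 or C-SPION 2, up to 0.19, and -0.02 after quantile normalisation), atgl-1 (-0.083 and -0.0050 without the same arrays, up to 0.34) and fil-1 (0.25 without C-SPION 1, down to -0.39). Of the other genes named, fmo-4 ran from -0.41 to 0.068, nhr-49 from -0.12 to 0.085 with 0.037 after median centring, and hacd-1 from -0.053 to 1.1 with 1 array left out. Of 208 such values of the 26 pathway genes named, 203 kept their direction; lips-3 passed without C-SPION 1 at -2.43, and was at -1.03 (limma adjusted p = 0.708) without C-SPION 3. Over all clusters 0 passed, and 0 to 63 with 1 array left out. The 63, 6 higher and 57 lower, came without C-SPION 1, and none of the 10 genes was among them; the cause was not tested. With limma and all arrays, 1368 higher and 1912 lower clusters had an unadjusted p under 0.05. With median centring the median difference was 0.11 over all clusters and 0.30 over the 10 genes, in place of 0.04 and 0.23. The filter on dim clusters left 6 of the 10 genes. It removed lipl-1, lipl-3, lipl-4 and fil-2, whose differences were -0.14, 0.38, 0.55 and 0.53. Deviations of same-numbered arrays from their group means correlated at 0.22, 0.20 and 0.0079. Those of arrays with different numbers correlated at -0.27 to 0.058, below the values of numbers 1 and 2. Deviations within a group cancel out, so the different-number values are not independent of the same-number ones. C-SPION 3 and control 3 did not correlate best with each other, and the labels give no pairing, so the main fit has none. Whether the arrays numbered 1 and 2 are paired is not settled by these values. With the replicate block 0 clusters passed, the lowest adjusted p being 0.315.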
